A study of Danio rerio with 10 samples.

Results

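The complement cascade was followed in sorted cells of the zebrafish pectoral fin. Complement is a set of plasma and cell surface proteins that tag and lyse microbes and mark dying cells for removal. The classical pathway starts when C1q binds a target and the proteases C1r and C1s cut C4 and C2. The lectin pathway starts when mannose-binding lectin and its MASP proteases do the same, and the alternative pathway amplifies both through factors B, D and P (properdin). All routes meet at C3, whose cleavage leads to C5, and C5b then gathers C6, C7, C8 and C9 into the membrane attack complex. Factor H and its relatives restrain C3 on host surfaces. Most circulating complement comes from the liver, C1q comes mainly from macrophages, and many other cell types also make single components.

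A list of 35 symbols set the members, and each gene of the deposited count table with one of these symbols was taken. The table held 33 of the symbols and lacked c2 and cfi as gene names. Because c6 stands for 2 identifiers, there were 34 member genes among 32520. The identifier ENSDARG00000093052 is called c6.1 here and ENSDARG00000057113 is called c6.2, as in the gene name table. By role there were 8 genes of initiation, 11 of the C3, C4 and C5 family, 8 of the terminal complex and 7 of the alternative pathway factors and factor H family.

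RNA-seq libraries came from embryos at 48 h post fertilization (hpf), 2 of wild type (WT) and 2 of prdm1am805/m805 mutants, here prdm1a-/-. All 4 carried Tg(Mmu:Prx1-EGFP), in which a mouse Prx1 enhancer drives EGFP in the fin mesenchyme. The m805 allele brings an early stop codon into the SET domain of Prdm1a, a zinc finger transcription factor needed for fin outgrowth. Mutants were picked by their pigment phenotype, embryos were pooled, and EGFP-positive cells were sorted. The transgene also marks the pharyngeal arches and dorsal head, so the head was dissected away first, and the study states that some of this tissue could remain. Heterozygotes were counted as WT in the study's fin measurements, and whether the WT pools held any is not stated. The remaining 6 samples of the series, CUT&RUN at 24 hpf, were not analysed here.

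Depth and purity bear on every value below. Counts assigned to genes summed to between 20303621 and 26798799 per library, and 3 counts then equal 0.116 to 0.147 CPM (the usual counts-per-million scale, with TMM factors). All 16 markers of fin mesenchyme passed the filter on low counts, and prrx1a had 5829 and 5111 counts in WT and 6042 and 5244 in prdm1a-/-. The 16 summed to 1361 and 1236 CPM in WT and 1284 and 941 CPM in prdm1a-/-. A list of 11 epidermal genes summed to 13474 and 12491 CPM in WT and 15747 and 10956 CPM in prdm1a-/-. The pools thus also held much RNA of epidermal genes. The targeted gene prdm1a had 1147 and 5222 counts in WT and 2505 and 7847 in prdm1a-/-, which does not check the labels, because a transcript with a stop codon is still counted. The first component of the libraries held 65.5% of the variance and separated replicate 1 from replicate 2. The second held 21.6% and separated the genotypes. For this reason each comparison is given within replicate number as well as between genotypes.

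Of the 34 member genes, 24 had enough counts to be tested. In edgeR's quasi-likelihood test with replicate number as a block, 5 of the 24 rose in prdm1a-/- at an adjusted p under 0.05, and none fell. Across all 20007 genes tested, 1.01% were called, 0.395% as higher and 0.62% as lower. The 5 were c4b, of the classical and lectin pathways, c6.1, c6.2 and c7a, of the membrane attack complex, and cfh, which codes for factor H. In sorted bulk cells, more cells of a type and more RNA per cell cannot be told apart. At an unadjusted p under 0.05, 12 members were higher and 0 were lower, against 6.4% of all genes that were higher by this measure. DESeq2 with the block called the same 5 members, against 1.23% of all genes, limma-voom with the block called 8, against 2.17%, and both called 0 members lower.

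The lean towards higher counts was not confined to the called genes. The fitted log2 fold change (prdm1a-/- over WT) was above 0 in 22 of 24 tested members, against 50.7% of all genes. Its median was 0.86, against 0.0068 over all genes. Within both replicate numbers the prdm1a-/- library was the higher one for 17 members, or 70.8%, against 29.7% of all genes. No tested member was lower in both, and 7 went one way in one number and the other way in the other. Both prdm1a-/- libraries lay above both WT libraries for 9 members, or 37.5%, against 12.7% of all genes. For 0 tested members did both lie below, against 13.5%. Among the 19 tested members that were not called, 17 had a fitted log2 fold change above 0, with a median of 0.77. Of these 19, 63.2% were higher in prdm1a-/- within both replicate numbers, and 26.3% had both prdm1a-/- libraries above both WT libraries. These shares describe the tested members only, and 10 member genes had too few counts, at most 22 in a library. Of these 10, c1qc, cfhl1 and masp2 were lower in prdm1a-/- within both replicate numbers, and c3a.5 was higher. With no filter, fitted log2 fold changes were below 0 for c1r, masp2, c8b, cfhl3, c1qc and cfhl1. They were above 0 for c1qa, mbl2, c3a.4 and c3a.5, and none of the 10 was called. Among the tested members, c1qb passed the filter through its prdm1a-/- counts alone. Its place among the higher members was therefore built in, here and in the 12 with an unadjusted p under 0.05.

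**Figure D1:**
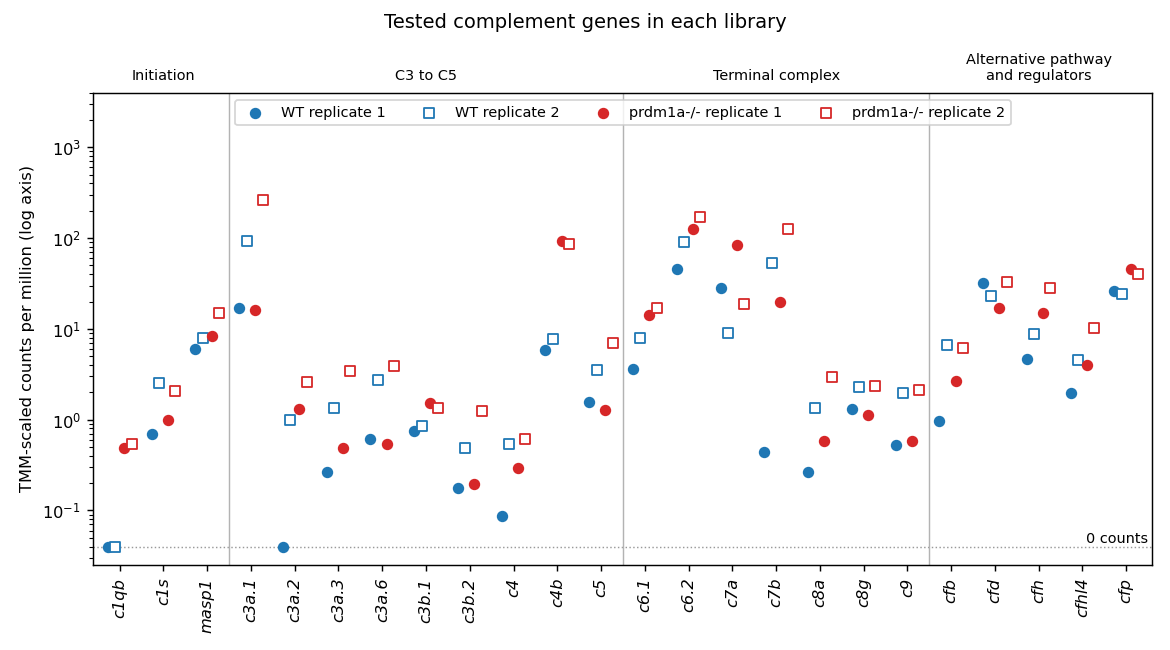
TMM-scaled CPM (log axis) of the 24 tested complement genes in each of the 4 libraries, in order of role; blue marks WT, red marks prdm1a-/-, filled circles are replicate 1 and open squares replicate 2. The 2 red marks lie far above the 2 blue marks for c4b, while for c3a.1 and c7b the open squares of either genotype lie above the filled circles; levels of different genes are not corrected for length.

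The statistical support depends on the block. With genotype as the only term, edgeR called 0 of 20007 genes, with 376 genes and 5 members under an unadjusted p of 0.05, and every one of the 5 called members had an adjusted p of 0.9999. DESeq2 with genotype alone called 53 genes, or 0.265%, 1 of them a member, c4b, at an adjusted p of 3.90e-17. The block leaves 1 residual degree of freedom and genotype alone leaves 2.

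Genes of initiation were scarce. Of 8 genes, 3 could be tested and edgeR called 0, against 1.01% of all genes. DESeq2 and limma-voom with the block also called 0. At an unadjusted p under 0.05, 2 were higher, against 6.4% of all genes. These 2 were masp1 and c1qb, and c1qb passed the filter through its prdm1a-/- counts alone. The 5 that could not be tested were c1qa, c1qc, c1r, masp2 and mbl2. Their highest count in any library was 22, for mbl2 in prdm1a-/- replicate 2. No direction could be read from so few reads. A difference in the genes of C1r, MASP-2 or mannose-binding lectin could thus be neither shown nor excluded.

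c1qb codes for the B chain of C1q, the recognition unit of the classical pathway. It had 0 and 0 counts in WT and 10 and 14 in prdm1a-/-. The groups did not overlap, and the pooled level in prdm1a-/- was 7.83 times a floor of 3 counts over both WT libraries. Because no WT library passed the filter, a difference was built into its being tested. The adjusted p from edgeR was 0.236. The A and C chains, which assemble with the B chain in one protein, did not show the same order: c1qa had 2 and 2 counts in WT and 10 and 0 in prdm1a-/-, and c1qc had 16 and 2 in WT and 2 and 2 in prdm1a-/-.

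masp1 codes for a protease of the lectin pathway and, by another splice form, MASP-3, which activates factor D in mammals. It had 138 and 180 counts in WT, 7.01 ± 1.40 CPM (SD, n = 2), and 170 and 386 in prdm1a-/-, 11.6 ± 4.63 CPM. In CPM both mutant libraries were above both WT libraries, though replicate 1 of the mutant exceeded replicate 2 of the WT only narrowly, at 8.33 against 8.01 CPM. The log2 fold change was 0.69 (SE 0.258) and missed the threshold in edgeR's test (adjusted p = 0.313). c1s, the protease that cuts C4, had 16 and 57 counts in WT and 20 and 53 in prdm1a-/-. Here the second replicate was the higher in either genotype, and the fitted log2 value was 0.05 ± 0.612 (SE), with an adjusted p of 0.989 in edgeR's test.

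C3, C4 and C5 are large relatives of one family, and C3 and C4 bind covalently to targets through a thioester bond that C5 lacks. Of 11 genes, 9 were tested, and all had a fitted log2 fold change above 0 (median 0.85), against 50.7% of all genes. Of the 9, edgeR called 1 as higher, c4b, against 0.395% of all genes. The genes c3a.4 and c3a.5 had too few counts.

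Among the called members c4b had the largest difference, and its replicates lay close together. It had 134 and 174 counts in WT and 1879 and 2213 in prdm1a-/-. This gave 6.79 ± 1.34 CPM in WT and 88.7 ± 4.81 CPM in prdm1a-/- (SD, n = 2), so the difference exceeded the spread between replicates. The log2 fold change was 3.71 (SE 0.186), or 13.1-fold, with an adjusted p of 2.14e-05 in edgeR's test. Within replicate 1 the log2 ratio was 3.98 and within replicate 2 it was 3.46. Between the replicates of one genotype c4b moved little, with log2 ratios of replicate 2 over replicate 1 of 0.40 in WT and -0.11 in prdm1a-/-. The second C4 gene, c4, had 2 and 12 counts in WT and 6 and 16 in prdm1a-/-, with a log2 fold change of 0.77 that missed the threshold.

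By the RefSeq gene table of assembly GRCz12tu, c4b lies on chromosome 16, as does prdm1a. Mutants chosen for a prdm1a allele share the stretch of chromosome around it, so loss of Prdm1a and a linked variant near c4b cannot be told apart in this design. In the order of tested genes, 126 others lay between c4b and prdm1a. Of the 20 tested genes nearest to c4b, 10 on each side, 0 were called by edgeR, and log2 fold changes ran from -2.61 to 0.88. At an unadjusted p under 0.05 there were 4, against 2490 of all 20007 genes. DESeq2 with the block called 1 of them as higher, tnfrsf1a, a receptor for tumour necrosis factor (log2 fold change 0.88). limma-voom called 2, tnfrsf1a as higher and tnxba, which codes for a tenascin of the extracellular matrix, as lower (-2.61). In the order of tested genes tnxba lay next to c4b. These 2 genes were named after their values were seen. Of the 764 tested genes on the chromosome, 0.785% were called, against 1.05% of all genes matched to the table.

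c3a.1 codes for C3, the component on which all routes converge. It had 387 and 2105 counts in WT and 332 and 6805 in prdm1a-/-, or 16.9, 93.6, 16.3 and 262 CPM. The genotypes overlapped, and both second replicates lay above both first ones. Between genotypes the log2 ratio was -0.05 within replicate 1 and 1.49 within replicate 2, so only the second pair differed, and the fitted value was 0.77 (SE 0.286, adjusted p = 0.307 in edgeR's test). limma-voom with the block called it (adjusted p = 0.0312).

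c3a.2 had 0 and 22 counts in WT and 27 and 67 in prdm1a-/-, without overlap. Its log2 fold change was 2.66, but the SE was 1.03 and the adjusted p 0.329, and within replicate 2 alone the log2 ratio was 1.40. c3a.3 and c3a.6 had 6 to 101 counts per library. In both the second replicates lay above the first, and fitted log2 fold changes were 1.18 and 0.22, neither of them called.

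c3b.1 and c3b.2, a second pair of C3 genes, had fitted log2 fold changes of 0.85 and 0.87 and were not called. Both prdm1a-/- libraries of c3b.1 lay above both WT libraries, at 1.52 and 1.35 against 0.742 and 0.845 CPM. c5, the source of the inflammatory peptide C5a and of the first piece of the lytic pore, had 36 and 80 counts in WT and 26 and 182 in prdm1a-/-. The c5 genotypes overlapped, and the fitted log2 fold change of 0.41 missed the threshold.

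**Figure D2:**
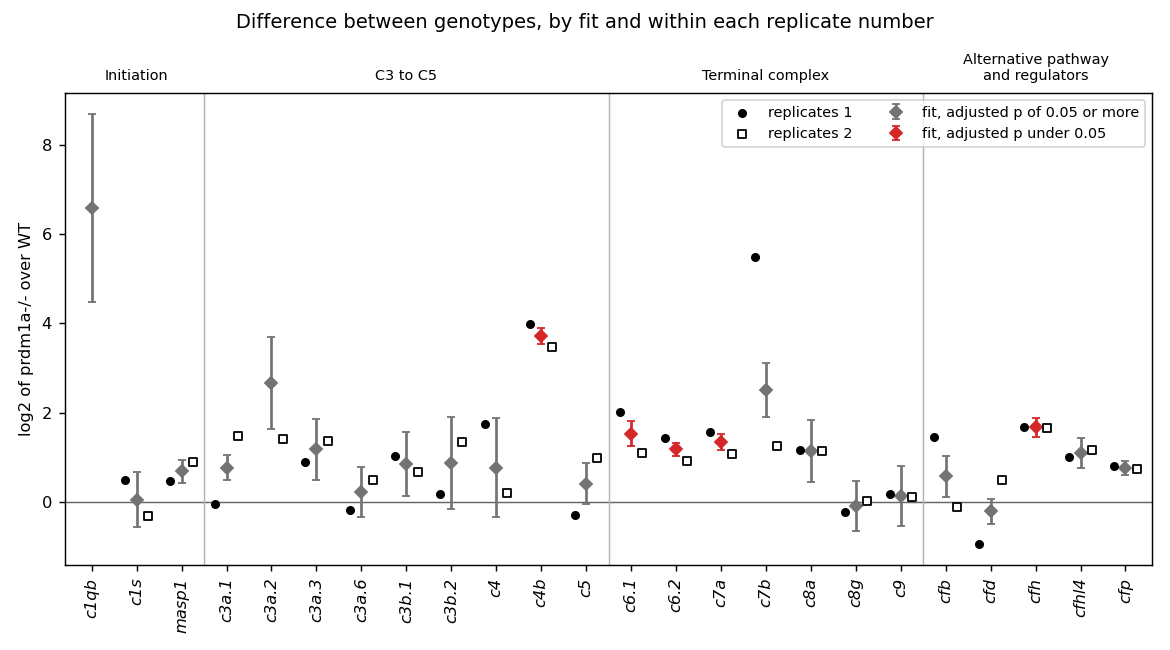
Log2 ratio of prdm1a-/- over WT for the 24 tested members, as diamonds for the edgeR fit with the replicate block (bars are 1 SE, red where the adjusted p is under 0.05) and as filled circles and open squares for the ratios within replicate 1 and replicate 2. The fitted value lies below 0 for cfd and c8g only, c4b combines a large value with a small error, and the 6.58 of c1qb depends on the prior count, since WT had 0 counts.

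The terminal complex held most of the called members. Of 8 genes, 7 were tested and 3 rose, against 0.395% of all genes. The median log2 fold change of the 7 was 1.17, against 0.0068 over all genes. Within replicate number, 6 of the 7 were higher in prdm1a-/- both times, against 29.7% of all genes. c8b, the beta chain of C8, had 4 counts in one WT library and 0 in the other 3.

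C6 is the first protein to join C5b. c6.1 had 82 and 179 counts in WT, 5.77 ± 3.10 CPM (SD, n = 2), and 293 and 442 in prdm1a-/-, 15.7 ± 1.89 CPM. The groups did not overlap, and the log2 fold change was 1.53 (SE 0.282), with an adjusted p of 0.0341 in edgeR's test. With RLE size factors in place of TMM the adjusted p was 0.0732, and the call was lost. c6.2 had 1055 and 2029 counts in WT, 68.2 ± 31.3 CPM, and 2543 and 4419 in prdm1a-/-, 147 ± 32.3 CPM. It rose by 1.17 on the log2 scale (SE 0.156, adjusted p = 0.00569 in edgeR's test), by 1.44 within replicate 1 and 0.92 within replicate 2. Both C6 genes thus rose, and in each the second replicate was the higher one in either genotype.

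C7 anchors the growing complex in the membrane, and its gene copies showed opposite replicate patterns. c7a had 646 and 200 counts in WT and 1709 and 485 in prdm1a-/-, or 18.5 ± 13.6 CPM against 51.2 ± 46.0 CPM (SD, n = 2). It was the only tested member whose first replicates both lay above both second replicates, which 29.2% of all genes also showed. The genotypes overlapped, yet the log2 ratio was 1.57 within replicate 1 and 1.07 within replicate 2. The fit with the block gave 1.33 (SE 0.180, adjusted p = 0.00609). With genotype alone and prdm1a-/- replicate 1 left out, the value was 0.01.

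c7b had 10 and 1196 counts in WT and 402 and 3308 in prdm1a-/-, or 0.436, 53.2, 19.7 and 127 CPM. Between WT replicates it moved by 6.93 on the log2 scale, more than between genotypes. The log2 ratio was 5.50 within replicate 1 and 1.26 within replicate 2, and the fitted 2.50 (SE 0.599) missed the threshold in edgeR's test, at an adjusted p of 0.0940. With no filter, with at least 10 counts required in every library or with limma-voom it was called, at 1.19e-04, 0.0461 and 0.0359. In the RefSeq table of GRCz12tu c7b and c6.2 overlap, and the strand setting of the read counting is not stated, so part of their reads cannot be assigned with certainty.

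C8 and C9 widen and complete the pore. c8a, the alpha chain of C8, had a fitted log2 fold change of 1.14 and ratios of 1.17 and 1.13 within the replicate numbers, but from 6 and 30 counts in WT and 12 and 76 in prdm1a-/-, and the adjusted p was 0.562. c8g and c9 had fitted values of -0.09 and 0.14. No count of theirs passed 61 in a library, their SE was 0.559 and 0.671, and a moderate difference could have been missed.

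Among alternative pathway factors and the factor H family, 5 of 7 genes were tested (median log2 fold change 0.76). Of the 5, edgeR called 1 as higher, cfh, against 0.395% of all genes. cfh codes for factor H, the main soluble inhibitor of C3 activation. It had 107 and 199 counts in WT, 6.76 ± 2.96 CPM (SD, n = 2), and 307 and 726 in prdm1a-/-, 21.5 ± 9.14 CPM. Both mutant libraries were above both WT libraries. edgeR gave a rise of 1.67 on the log2 scale (SE 0.217, adjusted p = 0.00486), or 3.19-fold, and it was nearly equal within replicate 1 (1.69) and replicate 2 (1.66). Hence an inhibitor was among the called genes together with parts of the attack complex.

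cfhl4, a factor H relative, had 45 and 102 counts in WT and 81 and 264 in prdm1a-/-. Its CPM was higher in prdm1a-/- within both replicate numbers, but the genotypes overlapped and the adjusted p was 0.192. cfhl1 and cfhl3 had at most 9 counts in a library and were not tested.

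cfp codes for properdin, which stabilises the C3 convertase and thereby promotes activation. It had 596 and 547 counts in WT, 25.2 ± 1.18 CPM (SD, n = 2), and 924 and 1048 in prdm1a-/-, 42.8 ± 3.46 CPM. The groups were well apart and the replicates close. The log2 fold change of 0.76 (SE 0.158) nonetheless missed the threshold in edgeR's test, with an adjusted p of 0.0591. It was called with no filter (0.00955), with at least 10 counts in every library (0.0361) and by limma-voom (0.0252).

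cfd codes for factor D, the protease that cuts factor B. It was the tested member with the lowest fitted value, -0.21 (SE 0.287, adjusted p = 0.832), from 738 and 519 counts in WT and 344 and 842 in prdm1a-/-. Its log2 ratio was -0.93 within replicate 1 and 0.49 within replicate 2, so no direction was shared. cfb, factor B itself, had 22 and 148 counts in WT and 54 and 158 in prdm1a-/-, with more reads in the second replicates and a fitted log2 fold change of 0.57 that was not called.

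**Figure D3:**
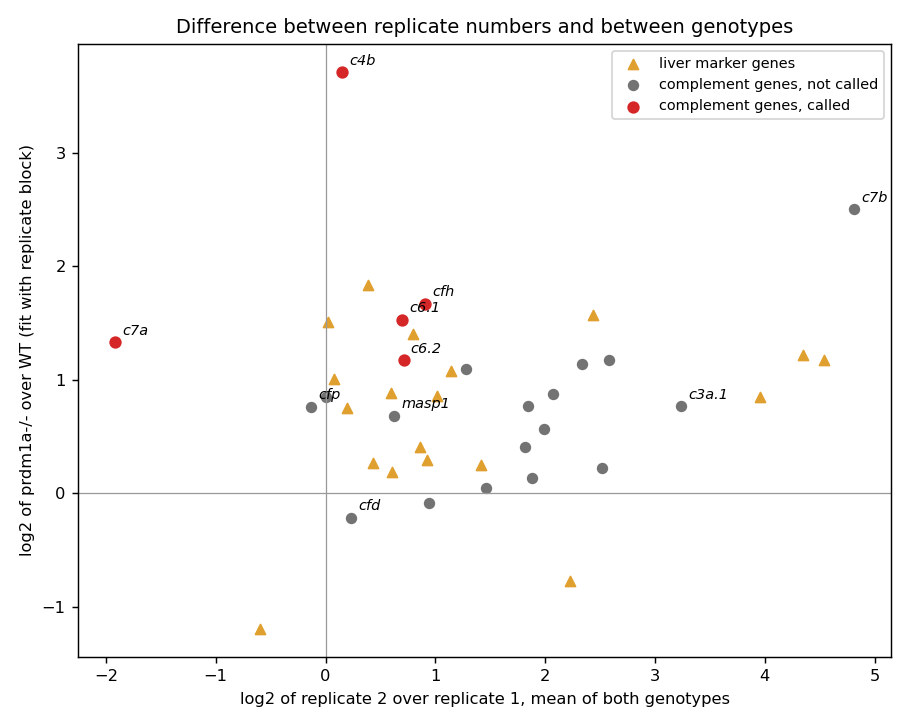
Each point is a gene, placed by its log2 ratio of replicate 2 over replicate 1 (horizontal, mean of both genotypes) and by the fitted log2 ratio of prdm1a-/- over WT (vertical), for the 22 tested complement genes with counts above 0 in all libraries and 19 liver markers (triangles). c4b lies near 0 horizontally and highest vertically, c7a lies to the left, and c7b and c3a.1 lie to the right among genes with more reads in replicate 2.

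Replicate number was a large axis for the members. Both second replicates lay above both first ones for 13 of 24 tested members, against 30.5% of all genes, and below them for 1, c7a. In a list of 13 tested acute-phase and interferon genes, all 13 had both second replicates above both first ones. The cytokine gene il1b, for example, had 20 and 540 counts in WT and 22 and 939 in prdm1a-/-, and the transcription factor gene irf1b had 73 and 8666 in WT and 137 and 11853 in prdm1a-/-. edgeR called 0 of the 13 between genotypes, against 1.01% of all genes. At an unadjusted p under 0.05, 5 were higher and 0 lower, against 6.4% of all genes that were higher. DESeq2 with the block called 1, socs3a, and limma-voom called 2, socs3a and hamp, all as higher. The fitted log2 fold change was above 0 in 11 of the 13 (median 0.51), against 50.7% of all genes. Within both replicate numbers 61.5% were higher in prdm1a-/-, against 29.7% of all genes, and 0 were lower. These genes thus separated the replicate numbers, as did c3a.1, c5 and c7b, and most also leaned higher in prdm1a-/-. Neither the labels nor the methods say what libraries of one number shared.

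Summed over members, complement reads came to 181 and 358 CPM in WT and 453 and 845 CPM in prdm1a-/-. In each genotype replicate 2 was the higher, and WT replicate 2 lay below prdm1a-/- replicate 1. Between genotypes the log2 ratio of the sums was 1.33 within replicate 1 and 1.24 within replicate 2. By role, it was 0.38 and 0.65 for initiation, 2.12 and 1.72 for C3 to C5, 1.61 and 1.04 for the terminal complex, and 0.34 and 0.79 for regulators. In the C3 to C5 sum of prdm1a-/- replicate 1, 114 CPM, c4b alone made up 92.1 CPM.

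**Figure D4:**
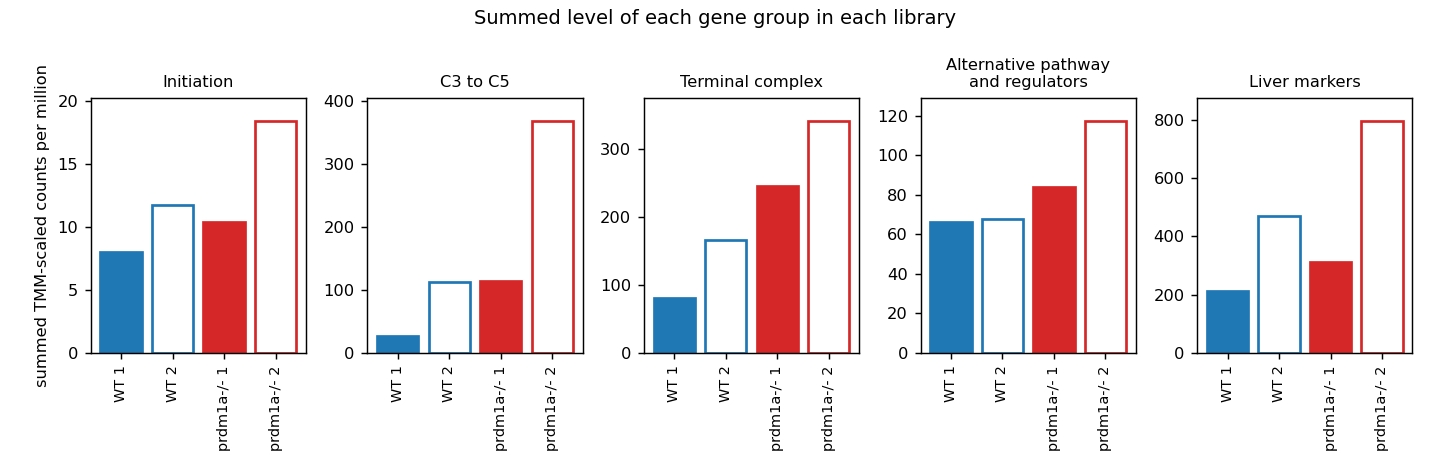
Summed TMM-scaled CPM of the 4 member groups and of the liver markers in each library, as bars that start at 0, with a scale of its own for each panel (filled bars replicate 1, open bars replicate 2). The C3 to C5 sum is 26.2 and 112 in WT and 114 and 368 in prdm1a-/-, the terminal sum 80.3 and 166 against 245 and 341, and the liver sum 211 and 470 against 313 and 796, so replicate 2 is the higher in either genotype.

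Most liver markers, though not all, leaned the same way as the complement genes. Of 24 listed liver genes, 19 were tested, and 5 rose in prdm1a-/-, namely apoa1b, cp, fga, fgb and fgg, while 0 fell. Over all genes tested 1.01% were called. Within both replicate numbers 13 of the 19 were higher in prdm1a-/-, 2 were lower and 4 were mixed, against 29.7% of all genes either way. The 2 lower ones were apoa1a and rbp4l, with fitted log2 fold changes of -0.77 and -1.19 that were not called. The listed liver genes summed to 211 and 470 CPM in WT and 313 and 796 CPM in prdm1a-/-. Log2 ratios of the sums were 0.57 and 0.76 within replicate number, and the median log2 fold change of the 19 was 0.85. fgg, a fibrinogen chain, had 30 and 712 counts in WT and 78 and 1704 in prdm1a-/-, a replicate pattern like that of c3a.1. Counts ranged widely over the list. At its low end fabp10a had 6 and 4 counts in WT and 10 and 32 in prdm1a-/-, and ttr had 2 counts in one WT library and 0 elsewhere. ahsg1 and one of 2 hp genes were at 0 in every library, while the other hp gene had 29 and 30 in WT and 24 and 53 in prdm1a-/-. Others were well counted, such as tfa, with 817 and 1018 in WT and 1361 and 1778 in prdm1a-/-. The part of liver RNA in the complement values was not tested.

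The fitted log2 fold change of c4b was 3.71, and no tested liver marker had one above 1.83. How much of the c4b RNA came from liver was not tested. The liver sum was higher in replicate 2 than in replicate 1 by 1.16 and 1.35 on the log2 scale, where c4b moved by 0.40 and -0.11. Single liver markers were split on this. In 11 of the 19 tested, both second replicates lay above both first ones, against 30.5% of all genes. Others moved as little as c4b, such as tfa (0.35 and 0.04) and serpina1l (0.23 and -0.07). Both prdm1a-/- libraries lay above both WT libraries for tfa and for serpina1l. Their fitted log2 fold changes of 0.75 and 1.01 were not called by edgeR. Among 15 macrophage genes, which include the C1q chains, 11 were tested and edgeR called 0, against 1.01% of all genes. At an unadjusted p under 0.05, 3 were higher and 1 lower, against 6.4% and 1210 of 20007 over all genes. With the block, DESeq2 called 0 of the 11 and limma-voom 1. The 15 macrophage genes summed to 58.5 and 52.3 CPM in WT and 58.9 and 77.5 CPM in prdm1a-/-. At the unadjusted threshold c1qb, irf8 and mpeg1.2 were the higher ones, and csf1ra, the receptor gene for a macrophage growth factor, was the lower one. The direction of c1qb was built in, because it passed the filter through its prdm1a-/- counts alone. csf1ra had 141 and 165 counts in WT and 31 and 84 in prdm1a-/-, while mpeg1.1, a defining macrophage gene, had 14 and 26 in WT and 22 and 68 in prdm1a-/-. Of the 11 tested macrophage genes, 9, including c1qb, had a fitted log2 fold change above 0 and 2 below, csf1ra (-1.57) and spi1b (-1.04). Over all genes 50.7% were above 0. Within both replicate numbers 7 of the 11, again with c1qb, were higher and 2 lower, against 29.7% of all genes either way. Most genes of the macrophage list thus leaned higher, but not all shared a direction. Whether each of them, csf1ra included, came from macrophages alone in these pools was not tested. Of 6 tested yolk syncytial genes, edgeR called 1 as higher, the apolipoprotein gene apoeb, and 0 as lower. Over all genes edgeR called 0.395% as higher and 0.62% as lower. Both prdm1a-/- libraries lay above both WT libraries for 2, apoeb and mttp, against 12.7% of all genes. They lay below for 2, apoc1 and a ctslb gene, against 13.5%. The part of these cell types in the complement values was not tested.

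Complement receptors, inhibitors on cell surfaces and binding partners formed a wider list of 41 symbols. The table held 27 of these genes, of which 20 were tested. edgeR called 1 as higher and 0 as lower, against 1.01% of all genes, and the median log2 fold change was 0.39. At an unadjusted p under 0.05, 6 were higher and 0 lower, against 6.4% of all genes that were higher. limma-voom with the block called 3 as higher, clu, c1qbp and colec11, against 2.17% of all genes called. For colec11 the fitted log2 fold change was 1.25, with an adjusted p of 0.120 in edgeR's test. The gene that edgeR called was clu, for clusterin, a soluble inhibitor that binds the assembling attack complex. It had 599 and 375 counts in WT, 21.4 ± 6.69 CPM (SD, n = 2), and 2259 and 871 in prdm1a-/-, 72.1 ± 54.5 CPM. The rise was 1.56 on the log2 scale (SE 0.231, adjusted p = 0.0104 in edgeR's test), and, as in c7a, the first replicates held more reads. The 3 genes of this list with the highest mean CPM were lrp1ab, calr and calr3b, an endocytic receptor and calreticulins that take part in the uptake of dying cells, with log2 fold changes of 0.45, 0.19 and 0.13 that missed the threshold.

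Many of the members' genes lie on a few chromosomes. By the same RefSeq table, which gave a chromosome for 33 of 34, c3a.1, c3a.2, c3a.3, c3a.5 and c3a.6 lie on chromosome 1, and cfh, its relatives and both c3b genes on chromosome 22. The C1q chains, cfb, both C6 genes and c7b lie on chromosome 21. Where copies in such families are near-identical, counting can split or lose reads, and how far this touched the C3, C4 and factor H genes was not tested. Of the 5 called genes, c4b is on chromosome 16, c6.1 and c6.2 on 21, c7a on 8 and cfh on 22, hence on 4 chromosomes.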

How the data were processed

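Total RNA of sorted cells was made into directional libraries and sequenced in pairs. The authors trimmed reads, mapped them to danRer11 with STAR 2.7.10b and counted them per gene with featureCounts. The deposited values used here are these raw counts. The sources used here do not give the strand setting or the annotation version. The same table holds the authors' log2 normalized counts per library and their DESeq2 comparison (a mean normalized signal, a log2 fold change with its error, a test score, a p-value and an adjusted p-value), none of which was used.

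Genes were filtered with filterByExpr (at least 10 counts in enough libraries, 15 in all), which left 20007, and scaled by TMM. The test was edgeR's (4.0.16, R 4.3.3) quasi-likelihood test, two-sided, with replicate number and genotype as terms and Benjamini-Hochberg adjustment over all genes tested. This test gives no SE, so the SE beside its values was derived from its output. It is the absolute log2 fold change divided by the square root of the test's F statistic. limma 3.58.1 (voom) and DESeq2 1.42.0 were alternatives, as were genotype alone, RLE factors, other filters and each library left out. The scripts were tested on simulated counts. Deviations of same-numbered libraries from their genotype means correlated at r = 0.66 across 20007 genes (genes are not independent replicates). The number is the labels' own, and no source says what it marks, so p-values cover the spread among these libraries only.

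Members named in full were those called, those without overlap between genotypes and with a fitted log2 change of at least 1 in size, the pair with the highest CPM in each role, and c6. Members, lists and rules were chosen with earlier results of these data known. Gene names came from an Ensembl name table and RefSeq. Chromosomes, gene order and overlaps were read from the RefSeq table of GRCz12tu, and no coordinates are printed from it because its build differs from that of the counts.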

Additional observations from a re-analysis of the deposited data

How the results depend on the processing

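The count of called members depended on the model. Against 5 members higher with the replicate block, limma-voom gave 8, edgeR without the replicate block 0, DESeq2 with genotype alone (an alternative chosen after seeing the data) 1, and leaving out each library in turn with genotype alone 0 to 0. Over all genes, 203 were called in the main test, 128 with RLE factors, 636 with no filter, 434 by limma-voom, 53 by DESeq2 with genotype alone, 0 without the replicate block and 0 to 0 with a library left out. The common dispersion was 0.0446 with the block and 0.255 with genotype alone. No member was called lower in any of 12 fits. The log2 fold change of c1s turned negative without the block (-0.093), with limma-voom (-0.11) and with DESeq2 on genotype alone (-0.086), and with a library left out it ran from -0.74 to 1.11. With a library or a replicate number left out, c3a.1 ran from -1.77 to 3.04, c7b from -0.45 to 7.38, cfd from -0.93 to 0.49 and c7a from 0.01 to 2.52 (prdm1a-/- replicate 1 and WT replicate 1 left out), while c4b ran from 3.46 to 3.98. Fits with a library left out have genotype as the only term, so differences between replicate numbers enter their values. How far this set each range was not tested. In the 6 fits with the block, adjusted p ran from 8.81e-46 to 4.06e-04 for c4b, from 1.03e-05 to 0.0194 for c6.2, from 1.79e-05 to 0.0194 for c7a, from 2.02e-05 to 0.0149 for cfh, and from 7.07e-04 to 0.0732 for c6.1. With 2 libraries per genotype, moderate differences in members with few counts could have been missed, and power was not computed. No library could be left out of the block fit and tested.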

Other observations

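One gene outside the symbol list, chosen after its values were seen, is CABZ01073265.1, which the deposited table describes as complement factor I, the protease that inactivates C3b and C4b together with factor H. It had 132 and 116 counts in WT and 553 and 144 in prdm1a-/-. Within replicate 1 the log2 ratio was 2.23 and within replicate 2 it was 0.10, and the fitted 1.21 (SE 0.432) missed the threshold in edgeR's test at an adjusted p of 0.285. High counts were thus seen in a single mutant library, unlike cfh.

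Markers of other cells in the sorted pools gave values as follows. Erythroid genes summed to 299 and 167 CPM in WT and 164 and 77.6 CPM in prdm1a-/-. Of 9 tested, hbae3, hbbe1.3 and slc4a1a fell, against 0.62% of all genes. Of 16 fin mesenchyme genes, hand2 fell and none rose, against 0.62% and 0.395% of all genes. edgeR called 0 of 7 genes of the neutrophil list, 0 of 8 endothelial and 0 of 11 epidermal genes, against 1.01% of all genes. Neither DESeq2 nor limma-voom with the block called a gene of the neutrophil list or an endothelial gene. Each called 2 epidermal ones, cdh1 and krt91, both higher in prdm1a-/-, against 1.23% and 2.17% of all genes called. At an unadjusted p under 0.05, 3 genes of the neutrophil list and 4 epidermal genes were higher and 0 lower. In fin mesenchyme 4 genes were lower and 0 higher, and 0 endothelial genes passed. Over all genes, 6.4% were higher and 1210 of 20007 were lower by this measure. The 3 of the neutrophil list were il34, mpx and nccrp1, and the median log2 fold change of the 7 tested was 0.02. Whether each gene of this list, il34 and nccrp1 included, came from neutrophils here was not tested, so these counts describe the list only.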
